A study of Mus musculus with 3 samples.

Results

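H3K27ac, the acetylated form of histone H3 lysine 27 that marks active promoters and enhancers, was examined at the collagen genes of mouse pancreatic epithelial spheroids. The genes were taken as the autosomal protein-coding genes of the RefSeq annotation of GRCm38 whose symbol is Col, a number, a and a number, which gave 42 genes among 20661 autosomal protein-coding genes. Peaks lying within 50 kb of these gene bodies were used. Spheroids, which are multicellular epithelial cultures, came from wild-type C57BL/6J mice that had received caerulein, an analogue of cholecystokinin used to bring on acute pancreatitis, and from untreated mice of the same strain. All were grown in a medium with EGF, hydrocortisone, cholera toxin and bovine pituitary extract, so these additions are shared by both conditions. The age of the mice, the interval since caerulein and whether the cells of several mice were pooled are not given in the sources used here. There was 1 H3K27ac library per condition with 1 peak list, of 38793 post-caerulein and 37765 untreated peaks, and the input DNA library of untreated spheroids was not analysed here. The study asked, by its title, what epithelium keeps of an inflammation that has resolved.

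Collagens are extracellular proteins whose chains wind around each other in triple helices. Fibrillar collagens form the fibres of connective tissue and are made mainly by fibroblasts and, in the pancreas, by activated stellate cells, whereas type IV collagen forms the network of the basement membrane on which epithelium rests. Other classes link fibrils (the FACIT collagens), anchor epithelium to the tissue beneath, span the plasma membrane, or carry glycosaminoglycan chains in basement membrane zones (the multiplexins).

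Sequences before the starts of 6 collagen genes are shown because they set marked against unmarked promoters. An annotated start with a peak no more than 1 kb away was called marked. The upstream start of Col18a1 (chr10:77166531-77166780, minus strand) was marked in both lists, and that of Col16a1 (chr4:130047590-130047816, plus strand) was marked after caerulein alone. The starts of Col7a1 (chr9:108953336-108953585, plus), Col17a1 (chr19:47692043-47692292, minus), Col3a1 (chr1:45311288-45311537, plus) and Col1a2 (chr6:4505368-4505617, plus) were marked in neither list. Each run reads 5′ to 3′ on the strand of the gene and ends at the base before the annotated gene body. Sequences are from RefSeq, GRCm38.p6, and capitals mark GC boxes (GGGCGG) and CCAAT boxes on either strand.
Col18a1: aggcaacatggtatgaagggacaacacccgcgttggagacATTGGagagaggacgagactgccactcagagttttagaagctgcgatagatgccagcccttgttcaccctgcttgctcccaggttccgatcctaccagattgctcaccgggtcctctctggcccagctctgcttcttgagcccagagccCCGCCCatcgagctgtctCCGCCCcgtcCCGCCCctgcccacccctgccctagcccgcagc
Col16a1: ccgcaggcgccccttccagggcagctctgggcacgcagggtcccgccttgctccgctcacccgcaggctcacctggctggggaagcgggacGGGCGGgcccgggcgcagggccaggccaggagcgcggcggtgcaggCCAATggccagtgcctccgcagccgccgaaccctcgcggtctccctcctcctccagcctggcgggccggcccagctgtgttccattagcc
Col7a1: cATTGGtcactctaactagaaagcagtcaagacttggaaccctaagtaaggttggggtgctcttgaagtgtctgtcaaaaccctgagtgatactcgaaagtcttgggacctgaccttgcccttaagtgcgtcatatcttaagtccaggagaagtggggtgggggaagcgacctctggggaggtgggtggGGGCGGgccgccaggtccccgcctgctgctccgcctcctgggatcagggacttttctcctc
Col17a1: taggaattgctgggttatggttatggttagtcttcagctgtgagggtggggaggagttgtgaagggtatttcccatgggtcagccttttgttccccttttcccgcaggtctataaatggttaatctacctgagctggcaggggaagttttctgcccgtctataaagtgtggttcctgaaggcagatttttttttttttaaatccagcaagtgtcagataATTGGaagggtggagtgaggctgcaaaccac
Col3a1: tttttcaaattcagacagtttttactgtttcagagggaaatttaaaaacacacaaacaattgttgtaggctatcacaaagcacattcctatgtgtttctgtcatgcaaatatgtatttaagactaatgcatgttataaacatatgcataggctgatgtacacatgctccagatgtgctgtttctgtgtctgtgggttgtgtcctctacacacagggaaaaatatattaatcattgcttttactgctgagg
Col1a2: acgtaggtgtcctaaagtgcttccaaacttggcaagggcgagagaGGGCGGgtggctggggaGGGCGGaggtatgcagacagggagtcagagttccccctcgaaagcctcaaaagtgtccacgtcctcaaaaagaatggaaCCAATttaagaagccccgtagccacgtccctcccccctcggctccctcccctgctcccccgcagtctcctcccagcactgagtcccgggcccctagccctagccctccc

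By their medians, the marked collagen promoters were richer in G, C and CpG than the unmarked ones. Promoter sequence was at hand for 33 of the 42 genes, with 36 annotated starts, and the 250 bases before each start were read. The 6 starts marked in either list, of 5 genes, had a median GC content of 67.8% and a median of 18 CpG. The 30 collagen starts marked in neither had 58.4% and 8 CpG. The ranges overlapped, with 3 to 31 CpG at the marked and 0 to 28 at the unmarked collagen starts. Over all genes, marked starts had 60.4% and 16 CpG, and unmarked starts 48.8% and 3 CpG. The medians of marked and unmarked starts thus differed in the same direction among collagens as among all genes. A GC box stood before 4 of the 6 marked and 16 of the 30 unmarked collagen starts. Over all genes it stood before 59.8% of marked, 21.5% of unmarked and 43.4% of all starts. A CCAAT box stood before 4 marked and 8 unmarked collagen starts, against 35.3% of all starts. The letters TGANTCA, bound by AP-1, stood before 0 and 1 (6.18% of all starts), and TATAAA before 0 and 5 (11.7%). GGAATG, read by TEAD factors, stood before 1 and 3 (11.5%), and CAGACA, read by SMAD proteins, before 1 and 8 (14.8%). Motifs were searched on both strands, and these matches describe the letters of the window only. Of the marked windows, 5 of 6 share bases with an annotated gene body and 4 lie wholly in one, as do 20 and 9 of the 30 unmarked windows, so not all of this sequence lies upstream of a gene.

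Most collagen genes carried little H3K27ac in these cells, in either condition. A peak lay within 50 kb of 29 of the 42 genes after caerulein (69.0%, against 79.3% of all genes) and of 28 in untreated spheroids (66.7%, against 79.1%). For 13 genes neither list had a peak in that window (31.0%, against 19.5% of all genes). A peak overlapped the body of 13 genes after caerulein (31.0%, against 61.1%) and of 12 in untreated spheroids (28.6%, against 60.5%), although collagen genes are long, with a median of 110.4 kb against 17.5 kb for all genes. Of the 33 genes with an annotated start, 5 were marked there after caerulein (15.2%, against 56.5% of all genes) and 4 in untreated spheroids (12.1%, against 55.7%). The remaining 9 genes had no annotated start, and both ends of each were more than 1 kb from any peak of either list. Among genes of 100 kb or more, a background chosen after the data had been seen, 74.7% had a post-caerulein peak over the body and 72.1% an untreated one, against 11 and 10 of the 24 collagen genes of that length. In that class 59.6% of the genes with an annotated start were marked there after caerulein and 57.2% in untreated spheroids. Of such collagen genes, 4 of 18 were in each list.

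**Figure D1:**
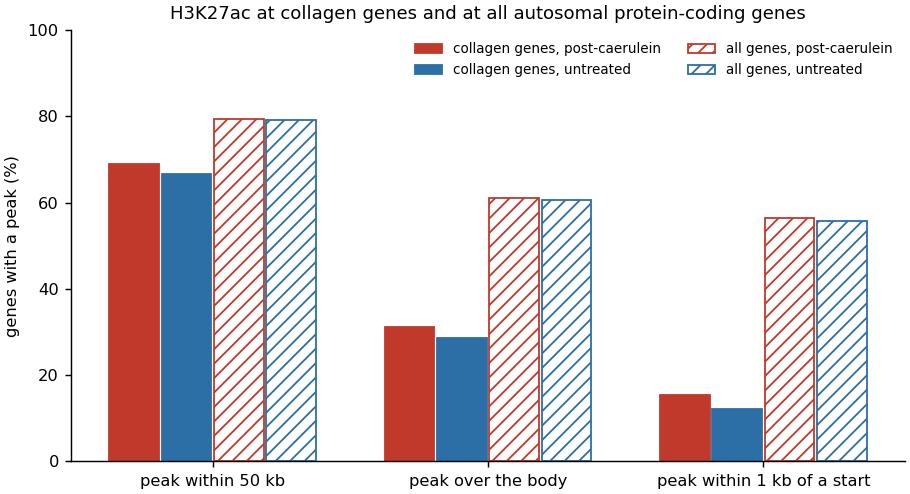
Share of genes with an H3K27ac peak (%) within 50 kb of the gene body, over the gene body, or within 1 kb of an annotated start, for collagen genes (solid bars) and all autosomal protein-coding genes (hatched bars), post-caerulein in red and untreated in blue. The bars for collagen genes are the shorter ones in each set, and at starts they reach 15.2% post-caerulein and 12.1% untreated, against 56.5% and 55.7% for all genes.

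The labelled cell type was set against its markers. Of 6 ductal epithelial markers with an annotated start, 6 were marked there in each list, and of 9 acinar markers 1 was, the transcription factor Bhlha15. Of all genes with an annotated start, 56.5% were marked there after caerulein and 55.7% in untreated spheroids. No start of the 8 fibroblast and stellate markers that have one was marked in either list. No peak lay within 50 kb of Fap, Lum, Pdgfra or Postn, 4 of the 14 markers (against 19.5% of all genes). By a fold of 1.5, coverage was higher after caerulein at 5 of the 14 (against 5.85% of all genes), Pdgfrb, Rgs5, Tcf21, Thy1 and Vim. It was lower at 0 of them (against 5.36%). Rgs5 had 11.6 kb after caerulein, against 1.12 kb in untreated spheroids. Around the 14 fibroblast and stellate markers, however, peaks summed to 114.1 kb after caerulein, against 85.1 kb in untreated spheroids, and the list-only peaks there numbered 10 after caerulein and 1 in untreated spheroids. Around the other marker lists the list-only peaks, summed over genes, were more often untreated ones, as around collagen genes. For ductal markers they numbered 8 after caerulein and 14 in untreated spheroids. Of those 14, 8 lay around Cftr, whose coverage was 23.6 kb after caerulein, against 54.5 kb in untreated spheroids. By a fold of 1.5, 1 ductal marker, Cftr, was lower after caerulein (against 5.36% of all genes). By the same fold 2 were higher (against 5.85%), Sox9 and Spp1. Sox9 had 11.2 kb after caerulein, against 5.12 kb in untreated spheroids, and Spp1 27.6 kb after caerulein, against 16.6 kb. At 3 of the 10 ductal markers the post-caerulein-only peaks outnumbered the untreated-only ones (against 24.6% of all genes). At 3 the opposite held (against 22.0%). For acinar markers the list-only peaks numbered 0 after caerulein and 5 in untreated spheroids. For endothelial markers they numbered 1 after caerulein and 5 in untreated spheroids, and for immune markers 2 after caerulein and 6 in untreated spheroids. Coverage was 537.7 kb after caerulein, against 568.9 kb in untreated spheroids, around ductal markers and 229.3 kb after caerulein, against 219.9 kb in untreated spheroids, around acinar markers. It was 17.6 kb after caerulein, against 26.9 kb in untreated spheroids, around endothelial markers and 80.9 kb after caerulein, against 87.9 kb in untreated spheroids, around immune markers. Of 3 endothelial markers 0 had a marked start in either list. Of 3 immune markers 2 were marked there after caerulein and 1 in untreated spheroids. Ptprc was marked after caerulein alone, against 1.74% of all genes with an annotated start. The part of these markers in the collagen results was not tested. In a bulk library, a change in the share of cells that carry a mark and a change within each cell cannot be told apart.

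Every difference below sets 1 library against 1 library, so spread between replicates could not be measured and no p-values were computed. The lists hold no read counts, and the depth of the libraries is unknown. Coverage means the length covered by the peaks of a list within 50 kb of the gene body, and its log2 ratio adds 1 kb to both lengths.

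H3K27ac around collagen genes was concentrated at few loci. The windows of the 42 genes spanned 8591.1 kb after joining those that overlap, of which peaks covered 448.7 kb (5.22%) after caerulein, against 468.3 kb (5.45%) in untreated spheroids, a log2 ratio of -0.06 (0.01 over the gene bodies alone). Over all autosomes peaks covered 138.1 Mb after caerulein and 132.2 Mb in untreated spheroids, a log2 ratio of 0.06. The windows of Col4a1, Col4a2, Col18a1 and Col15a1 held 47.8% of the collagen coverage after caerulein and 43.7% of it in untreated spheroids. The median collagen gene had 3.82 kb of coverage after caerulein and 5.15 kb in untreated spheroids, and the median over all genes was 10.2 kb after caerulein and 10.1 kb untreated. The median log2 ratio was 0 both for collagen genes and for all genes.

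The direction by covered length depended on the threshold and the window. Coverage was higher after caerulein at 11 genes (26.2%, against 42.2% of all genes) and lower at 18 (42.9%, against 38.3%). At a fold of 1.5, 2 genes were higher (4.76%, against 5.85%), Col5a3 and Col6a2. By the same fold, 5 were lower (11.9%, against 5.36%), Col17a1, Col20a1, Col28a1, Col4a4 and Col8a1. Over the gene bodies alone, and within 10 kb, 3 genes were higher and 3 lower by that fold, and at a fold of 2 within 50 kb 2 were higher and 1 lower. With a pseudocount of 5 kb, 1 was higher and 1 lower. None of the 7 genes named had a marked start in either list.

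**Figure D2:**
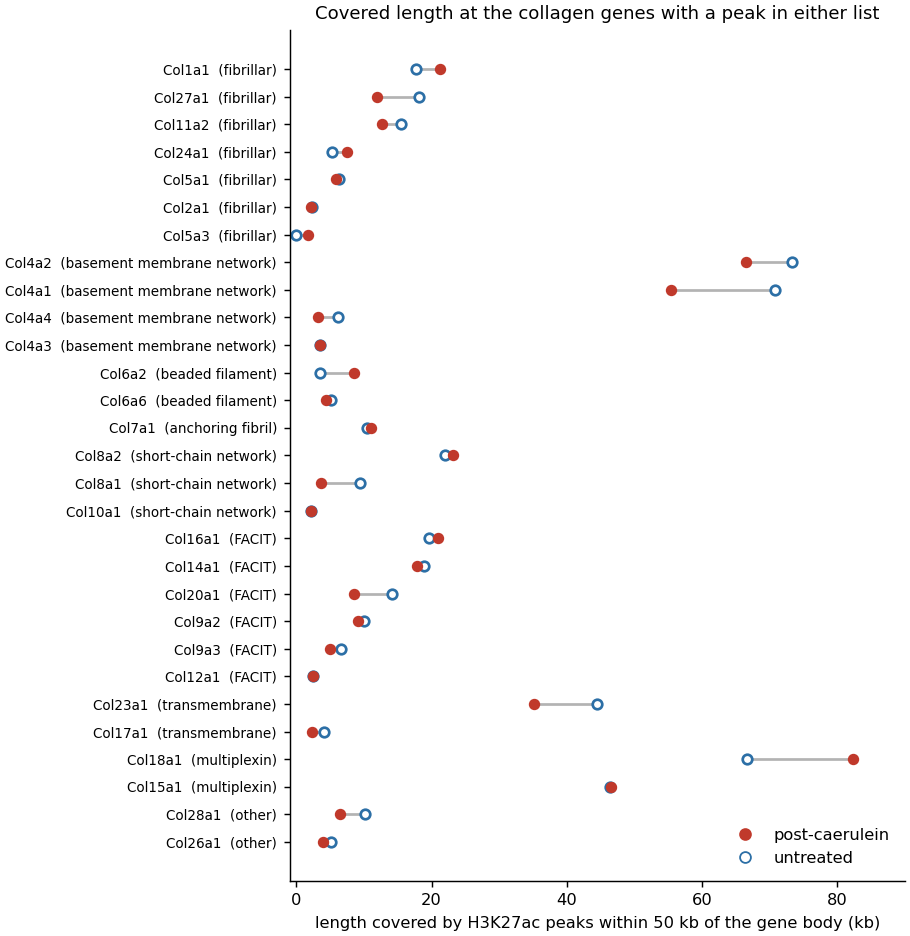
Length covered by H3K27ac peaks within 50 kb of the gene body (kb) for the 29 collagen genes with a peak in either list, grouped by class, post-caerulein as filled red points and untreated as open blue points, with 1 library each. Col18a1 has 82.3 kb post-caerulein against 66.7 kb untreated, Col4a1 has 55.5 kb post-caerulein against 70.8 kb untreated, and most other genes lie below 25 kb in both.

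Type IV collagen of the basement membrane carried the widest H3K27ac region over any collagen start. Col4a1 (chr8:11198423-11312889, minus strand) and Col4a2 (chr8:11312805-11449287, plus strand) encode the chains of the ubiquitous type IV network and are read head to head from starts 21 bases apart. The 250 bases before these starts had a GC content of 74.4% and 73.6% and held 31 and 26 CpG, at Col4a1 and Col4a2 in that order, and each window lies within the body of the partner gene. A broad H3K27ac region over both starts (chr8:11303589-11326755) held 3 peaks of 19.2 kb in all after caerulein, against 1 unbroken peak of 23.1 kb in untreated spheroids. The adjoining region in Col4a2 (chr8:11326888-11342935) likewise held 3 peaks of 10.2 kb after caerulein, against 1 peak of 16 kb in untreated spheroids. The promoter domain was thus present in both lists and, by peak widths, was shorter and more broken after caerulein. Over the starts the highest peak scored 3100 in each list, a score that many peaks share and that cannot rank them. It exceeded 85.0% of the post-caerulein list, where 3111.6 exceeded 99.2%, and 77.7% of the untreated list, where 3133.94 exceeded 99.4%. In the adjoining region the scores did not follow the widths. The highest peak there scored 1537.73 after caerulein, above 70.6% of its list, and 992.06 in untreated spheroids, above 56.5% of its list. Of 29506 shared autosomal regions, 124 had 1 untreated peak over 3 or more post-caerulein peaks. At 2 or more, 1176 had 1 untreated peak over several post-caerulein peaks, and 1460 had 1 post-caerulein peak over several untreated peaks.

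Within the gene bodies the pair leaned one way, and outside them the other. Coverage of the Col4a1 body was 16.2 kb after caerulein, against 21.4 kb in untreated spheroids, and that of the Col4a2 body 33.1 kb after caerulein, against 44.6 kb in untreated spheroids. Of the 10 regions that touch either body, 1 was wider after caerulein and 9 were wider in untreated spheroids. Of the 7 regions in their flanks, 6 were wider after caerulein and 1 was wider in untreated spheroids, with sums of 36.3 kb after caerulein, against 25.7 kb in untreated spheroids. The largest flank difference lay beyond the end of Col4a2, where a region at chr8:11455339-11465630 covered 10.3 kb after caerulein, against 5.19 kb in untreated spheroids. Its highest peak scored 3100 in the post-caerulein list and 870.88 in the untreated list, each on the scale of its own caller run. A neighbouring region at chr8:11469129-11474382 covered 5.25 kb after caerulein, against 1.28 kb in untreated spheroids. These regions overlap Rab20, a Rab-family GTPase gene. For the whole 50 kb windows the log2 ratio was -0.35 at Col4a1 and -0.14 at Col4a2.

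The other type IV pair, Col4a3 and Col4a4, encodes chains of specialised basement membranes such as that of the kidney glomerulus, and carried no peak over either body. Col4a3 had 3.56 kb of coverage after caerulein and 3.54 kb in untreated spheroids, of which 2.11 kb in each list lay at the start of the neighbouring gene Mff. Col4a4 (chr1:82448419-82587034) had 3.12 kb after caerulein, against 6.21 kb in untreated spheroids (log2 ratio -0.81). An untreated-only peak of 3.45 kb, 32162 bp beyond the end of the gene (chr1:82412806-82416257, score 643.41), was the largest difference. The start of Col4a4 lay 137311 bp from the nearest post-caerulein peak and 137261 bp from the nearest untreated peak.

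The multiplexin Col18a1 (chr10:77052178-77166530, minus strand), whose product is a proteoglycan of basement membranes and the precursor of endostatin, had the most coverage of any collagen gene. Its window held 82.3 kb after caerulein, against 66.7 kb in untreated spheroids (log2 ratio 0.30). Its body held 55.8 kb after caerulein, against 36.7 kb in untreated spheroids (log2 ratio 0.59). All 12 regions over the body were wider after caerulein, 9 of them shared by the lists and 3 post-caerulein-only. Those 3 peaks had scores of 108.66, 181.79 and 251.13, which exceeded 18.7%, 29.7% and 36.2% of the scores in their list. Outside the body the direction was mixed, with 3 of 7 regions wider after caerulein and 3 untreated-only peaks.

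Both annotated starts of Col18a1 were marked in both lists. The region over the upstream start (chr10:77164347-77169060) covered 4.71 kb after caerulein, against 3.30 kb in untreated spheroids. The region that reaches the downstream start (chr10:77108729-77115683) covered 6.96 kb after caerulein, against 4.22 kb in untreated spheroids, and its peak scored 1596.87 in the post-caerulein list and 759.51 in the untreated list. The downstream start had 3 CpG in the 250 bases before it, against 12 at the upstream start, and no GC box there.

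Col15a1 (chr4:47207655-47313167, plus strand), the other multiplexin, had no marked start, although its body was well covered. Its window held 46.5 kb after caerulein, against 46.4 kb in untreated spheroids (log2 ratio 0.00), and its body 32.9 kb after caerulein, against 28.2 kb in untreated spheroids. The nearest peak lay 10730 bp from the start after caerulein and 35563 bp in untreated spheroids, and the widest shared regions lay in the 3′ part of the gene. List-only peaks were spread over both lists, with 3 post-caerulein-only and 4 untreated-only. The largest difference was a post-caerulein-only peak of 2.73 kb in the body (chr4:47277817-47280547, score 90.66). Equal totals thus hid regions that differed in both directions.

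**Figure D3:**
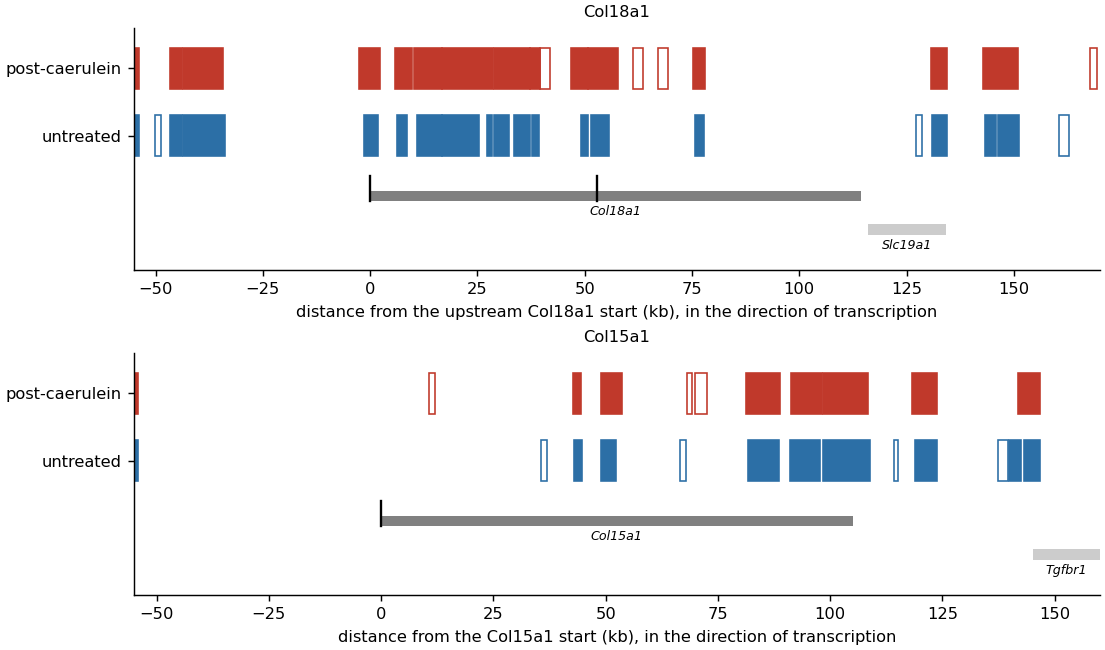
H3K27ac peaks at Col18a1 and Col15a1 by distance from the upstream annotated start (kb), in the direction of transcription, post-caerulein above and untreated below. Filled boxes overlap a peak of the other list, open boxes do not, grey bars are gene bodies and black ticks annotated starts. The 12 body regions of Col18a1 are wider post-caerulein, and the start of Col15a1 has no peak in either list.

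Fibrillar collagens, the main products of fibroblasts, had few peaks over the genes themselves. Of 11 genes, 4 had no peak within 50 kb in either list (against 19.5% of all genes), 2 had a peak over the body in each list (against 61.1% and 60.5%), and 1 of the 8 with an annotated start, Col27a1, was marked there. Coverage summed over the genes was 62.8 kb after caerulein, against 65.3 kb in untreated spheroids. Col3a1 encodes the chain of type III collagen, and its start lay 364068 bp from the nearest post-caerulein peak and 364008 bp from the nearest untreated peak. The Col1a2 start, that of a chain of type I collagen, lay 94426 bp from the nearest post-caerulein peak and 94631 bp from the nearest untreated peak. Both lists thus left these genes without H3K27ac nearby.

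Col1a1 (chr11:94936224-94953042), the other chain of type I collagen, had no peak over its body, yet 21.2 kb of coverage after caerulein and 17.7 kb in untreated spheroids (log2 ratio 0.24) in its flanks. There 6 of 7 regions were wider after caerulein, and the widest, at the start of Ppp1r9b, covered 6.74 kb after caerulein, against 6.64 kb in untreated spheroids. The largest difference was a post-caerulein-only peak of 1.17 kb (chr11:94978770-94979934, score 58.71) that lay 25728 bp from the gene. Col5a3, a chain of type V collagen, had 1.66 kb after caerulein, a single post-caerulein-only peak outside the body with a score of 74.67, and no untreated peak. Col11a2 had 12.7 kb after caerulein, against 15.5 kb in untreated spheroids (log2 ratio -0.27), none of it over the body. Its largest difference was a region at the window edge (chr17:34114576-34128033) that holds the starts of Brd2 and H2-DMa. Over its whole width, most of which lies outside the window, that region covered 10.7 kb after caerulein, against 12.9 kb in untreated spheroids, and none of its post-caerulein peaks reached the window. None of these 3 genes had a peak over its body in either list.

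Col27a1 (chr4:63214009-63334991, plus strand), a fibrillar collagen known from cartilage, was the fibrillar gene with a marked promoter, and its body regions were narrower after caerulein. Its window held 11.9 kb after caerulein, against 18.2 kb in untreated spheroids (log2 ratio -0.58). Of 4 regions over the body, 4 were wider in untreated spheroids. The start peak covered 2.64 kb after caerulein with a score of 190.41, above 30.6% of its list, and 3.94 kb in untreated spheroids with a score of 1179.01, above 59.4% of its list. An untreated-only peak of 2.69 kb (chr4:63268049-63270737, score 188.01) was the largest difference in the body.

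Col16a1 (chr4:130047817-130099277, plus strand), a FACIT collagen of fibrils and epithelial basement zones, was the 1 collagen gene whose start was marked in a single list. Its start peak (chr4:130047031-130048719) was post-caerulein-only, 1 of 33 genes (3.03%, against 1.74% of all genes with an annotated start). No collagen gene had a start marked in the untreated list alone (0.0%, against 0.991%). The Col16a1 start peak was weak, with a score of 75.19 that exceeded 10.0% of its list, and the nearest untreated peak lay 26394 bp from the start. A region in the body (chr4:130073736-130079464) covered 5.73 kb after caerulein, against 2.14 kb in untreated spheroids. Body coverage was 6.63 kb after caerulein, against 2.14 kb in untreated spheroids (log2 ratio 1.28). In the whole window, which includes a domain at the neighbouring gene Pef1 and 2 untreated-only peaks, coverage was 21.0 kb after caerulein, against 19.6 kb in untreated spheroids (log2 ratio 0.09). Without peaks at the starts of other genes the log2 ratio was -0.33. That setting leaves out the Pef1 domain as 1 post-caerulein peak of 13570 bp and 1 untreated peak of 10037 bp, and keeps an adjoining untreated peak of 3482 bp.

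Col28a1 (chr6:7997100-8193709, minus strand), related to the beaded filament collagens, had no marked start but a pair of shared body regions in its 3′ part. The first (chr6:8021729-8026952) covered 2.07 kb after caerulein with a score of 522.21, and 5.22 kb in untreated spheroids with a score of 1985.98. The other (chr6:8027606-8030705) covered 2.34 kb with a score of 122.77 after caerulein, and 3.10 kb with a score of 1902.45 in untreated spheroids. The scores of this second pair exceeded 21.4% of the post-caerulein list and 68.4% of the untreated list. Coverage of the window was 6.39 kb after caerulein, against 10.2 kb in untreated spheroids (log2 ratio -0.60).

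**Figure D4:**
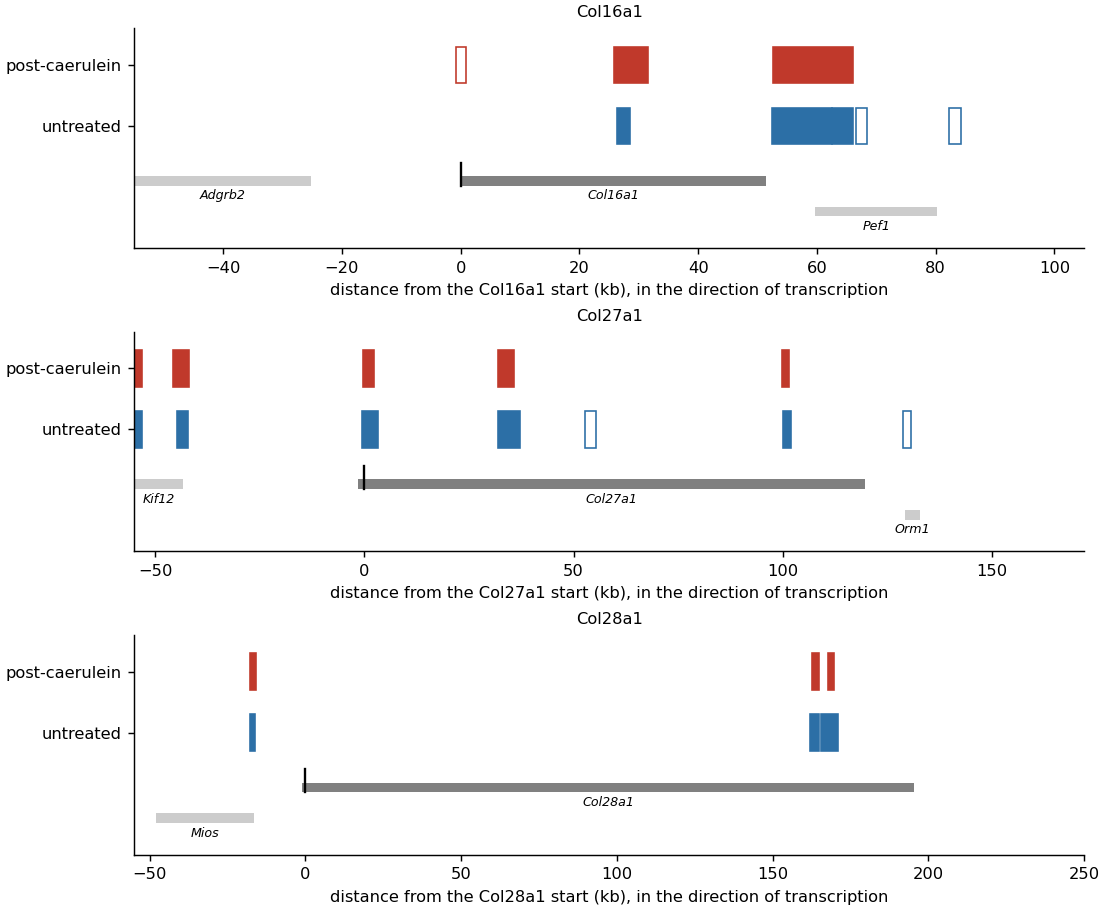
H3K27ac peaks at Col16a1, Col27a1 and Col28a1 by distance from the annotated start (kb), in the direction of transcription, post-caerulein above and untreated below. Filled boxes overlap a peak of the other list, open boxes do not, grey bars are gene bodies and black ticks annotated starts. An open post-caerulein box lies on the Col16a1 start, and at Col27a1 and Col28a1 the boxes over the body are wider in the untreated row.

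The anchoring and transmembrane collagens of epithelium were unmarked at their starts. Col7a1 forms the anchoring fibrils below stratified epithelium, and Col17a1 is a hemidesmosome protein that spans the membrane of basal epithelial cells. Neither gene had a peak over the body. The Col7a1 start lay 15514 bp from the nearest post-caerulein peak and 15637 bp from the nearest untreated peak, and its window held 11.1 kb after caerulein, against 10.5 kb in untreated spheroids. The Col17a1 start lay 38175 bp from the nearest post-caerulein peak and 38113 bp from the nearest untreated one, and its window held 2.37 kb after caerulein, against 4.07 kb in untreated spheroids (log2 ratio -0.59). Most of that difference was an untreated-only peak of 1.43 kb with a score of 186.98, 15552 bp beyond the end of the gene.

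The transmembrane collagens Col13a1 and Col25a1 had no peak within 50 kb in either list. Col23a1 (chr11:51289679-51583925), another transmembrane collagen, had 35.2 kb after caerulein, against 44.5 kb in untreated spheroids (log2 ratio -0.33). Its start was unmarked, and its body coverage, 4.99 kb after caerulein and 4.31 kb untreated, lay in a region at the start of Phykpl. The largest difference was a region beyond its end (chr11:51594801-51599060) that covered 1.05 kb after caerulein, against 4.19 kb in untreated spheroids. Most of the Col23a1 coverage thus lay beyond the end of the gene.

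The beaded filament chains of type VI collagen surround cells in connective tissue. Of their 6 genes, 4 had no peak within 50 kb in either list (against 19.5% of all genes). Col6a2 (chr10:76595756-76623630, minus strand) had 8.52 kb after caerulein, against 3.47 kb in untreated spheroids (log2 ratio 1.09), all upstream of the gene. Of its 3 regions, 3 were wider after caerulein. The nearest (chr10:76632232-76637181) began 8602 bp from the start and covered 4.95 kb after caerulein with a score of 2486.36, above 80.5% of its list. In untreated spheroids it covered 2.12 kb with a score of 274.43, above 34.3% of its list. Col6a1, whose chain pairs with that of Col6a2, had no peak in its window in either list. Col6a6 had 4.41 kb after caerulein, against 5.17 kb in untreated spheroids.

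The short-chain network gene Col8a1 (chr16:57624256-57754737, minus strand), whose product is found in endothelial basement membranes, had 3.70 kb after caerulein, against 9.42 kb in untreated spheroids (log2 ratio -1.15). Over the body alone the direction was the opposite (log2 ratio 1.46). A post-caerulein-only peak lay in the body (chr16:57671414-57673164, score 211.49), and 3 untreated-only peaks lay between 40910 and 45691 bp beyond the end of the gene. The widest of these, at chr16:57575701-57578565, was 2.87 kb wide. They adjoin a shared region at the edge of the window that covered 5.79 kb after caerulein, against 6.72 kb in untreated spheroids, parts outside the window included. Col8a2 had 23.2 kb after caerulein, against 22.0 kb in untreated spheroids, of which a region at the starts of Map7d1 and Trappc3 covered 10.2 kb after caerulein, against 10.1 kb in untreated spheroids. Col10a1, a cartilage collagen, had 2.21 kb after caerulein, against 2.18 kb in untreated spheroids at the start of Nt5dc1.

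Of 9 FACIT genes, 3 had no peak within 50 kb in either list (against 19.5% of all genes). The 9 together had 63.8 kb after caerulein, against 71.8 kb in untreated spheroids. Col14a1 (chr15:55307644-55520803), which binds the surface of collagen fibrils, had 17.8 kb after caerulein, against 18.9 kb in untreated spheroids (log2 ratio -0.09). Its body had 1 peak of 1504 bp after caerulein, against 2 peaks of 3.93 kb in all in untreated spheroids, and 1 post-caerulein-only peak stood against 2 untreated-only peaks. The largest differences were equal in size and opposite in sign: a flank region (chr15:55278082-55281471) covered 3.39 kb after caerulein, against 1.57 kb in untreated spheroids, and an untreated-only peak of 1.82 kb lay at chr15:55543254-55545073. Col20a1 had 8.59 kb after caerulein, against 14.1 kb in untreated spheroids (log2 ratio -0.66) and no peak over the body. It lay near the highest-scored untreated-only peak of the family (chr2:181065118-181072724, score 2245.74), which was 7.61 kb wide and began 47573 bp beyond the gene. Only part of that peak fell in the window. Col12a1, Col9a2 and Col9a3 had coverage of 2.40, 9.16 and 4.94 kb after caerulein, against 2.49, 10.0 and 6.57 kb in untreated spheroids.

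Peaks found in 1 list alone were more often untreated ones around collagen genes. Counting each peak once, the windows held 123 post-caerulein peaks, of which 16 had no overlap with an untreated peak (13.0%, exact 95% interval 7.62 to 20.3), against 17.6% of all autosomal post-caerulein peaks. They held 135 untreated peaks, of which 26 were untreated-only (19.3%, 13.0 to 26.9), against 14.2% of all autosomal untreated peaks. Post-caerulein-only peaks made up 38.1% of the 42 list-only peaks (23.6 to 54.4), against 56.1% over the autosomes (55.2 to 57.0). These are exact binomial (Clopper-Pearson) intervals and cover counting error over peaks only. At least 1 post-caerulein-only peak lay near 11 genes (26.2%, against 33.1% of all genes), and at least 1 untreated-only peak near 15 (35.7%, against 31.3%). The post-caerulein-only peaks outnumbered the untreated-only ones at 4 genes (9.52%, against 24.6%), and the opposite held for 12 (28.6%, against 22.0%).

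The excess on the untreated side lay in the flanks. Over the gene bodies alone there were 9 post-caerulein-only and 7 untreated-only peaks, and the log2 ratio of covered length was 0.01. List-only peaks were weak: none of the 16 found after caerulein alone (0) and 2 of the 26 found in untreated spheroids alone reached the median score of their own list. Both of those lay beyond Col20a1. The 2 lists merged into 145 regions around collagen genes, of which 103 were shared, against 29506 of 41416 over the autosomes. Of the 103 shared regions, 60 were wider after caerulein and 43 wider in untreated spheroids. Over the autosomes 55.9% of shared regions were wider after caerulein and 44.0% in untreated spheroids.

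Most of the regions within 50 kb lay outside the collagen genes themselves. Of the 145 regions, 49 lay over a collagen gene body and 35 at the start of another protein-coding gene, with 1 in both sets. Of those at other starts, 34 of 35 were shared by the lists, and of those over collagen bodies 33 of 49 were. Over the autosomes 29506 of 41416 regions were shared. For 16 of the 29 genes with a peak, every peak lay outside the body. Of all genes, 79.3% had a post-caerulein peak within 50 kb and 61.1% one over the body. In untreated spheroids these shares were 79.1% and 60.5%.

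The enzymes and chaperones that make collagen were set beside the collagen genes, although many also serve other secreted proteins. Of 33 such genes, 23 have an annotated start, and 16 of these were marked after caerulein (against 56.5% of all genes) and 14 in untreated spheroids (against 55.7%). Serpinh1, the collagen chaperone HSP47, and Tll1, a procollagen protease, were marked after caerulein alone. Of all genes with an annotated start, 1.74% were. Coverage summed to 498.5 kb after caerulein, against 456.5 kb in untreated spheroids, and the median log2 ratio was 0.17, against 0 for all genes. At a fold of 1.5, 7 of the 33 were higher after caerulein (against 5.85% of all genes) and 1, the galactosyltransferase gene Colgalt2, was lower (against 5.36%). Summed over genes there were 27 post-caerulein-only and 10 untreated-only peaks, and the post-caerulein-only share over the autosomes was 56.1%. The list leaned towards post-caerulein coverage, whereas collagen genes within 50 kb leaned the other way, and the difference between the lists was not tested.

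The prolyl hydroxylases, which stabilise the triple helix, differed in direction. P4ha3 had 7.14 kb after caerulein and no untreated peak within 50 kb, its start being unmarked in both lists. P4ha1 had 10.2 kb after caerulein, against 5.23 kb in untreated spheroids (log2 ratio 0.85). P4ha2 had 21.1 kb after caerulein, against 31.8 kb in untreated spheroids (log2 ratio -0.57), with its start marked in both. Mia2 and Mia3, which load large cargo such as procollagen at the endoplasmic reticulum, had 42.8 and 24.2 kb after caerulein, against 31.6 and 16.3 kb in untreated spheroids.

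Collagen receptors had similar total coverage in both conditions. Of 10 genes, 9 have an annotated start, and the same number, 4, were marked in each list (against 56.5% of all genes after caerulein and 55.7% in untreated spheroids). Coverage summed to 266.5 kb after caerulein, against 275.0 kb in untreated spheroids. Summed over genes, the list-only peaks numbered 7 after caerulein and 10 in untreated spheroids, and the post-caerulein-only share over the autosomes was 56.1%. In such sums a peak within 50 kb of several listed genes counts for each of them. The largest differences were at Ddr2, a receptor kinase for fibrillar collagen, with 20.2 kb after caerulein, against 29.1 kb in untreated spheroids, and at Itga2, the alpha chain of an epithelial collagen integrin, with 69.4 kb after caerulein, against 63.9 kb in untreated spheroids. Itga11, whose product binds type I collagen, had 23.1 kb after caerulein, against 18.8 kb in untreated spheroids. Itgb1, the beta chain shared by these integrins, had 16.2 kb after caerulein, against 19.2 kb in untreated spheroids. By a fold of 1.5, 0 of the 10 receptor genes were higher after caerulein (against 5.85% of all genes) and 2 were lower (against 5.36%), Gp6 and Mrc2.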

How the data were processed

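Chromatin of post-caerulein and untreated pancreatic spheroids was immunoprecipitated with an H3K27ac antibody and sequenced, with 1 library per condition. Per the submitters' processing notes, reads were handled with Trimmomatic 0.38, Bowtie2 2.2.6, SAMtools and MACS 1.4 on GRCm38 (mm10). The control and options of the peak caller were not given in the sources used here. A deposited list gives the chromosome, start, end, name and score of the peaks of 1 library. The deposited score, made by the authors' caller, ran from 50.0 to 3233.06 and served for ranking within its own list only, since depth is unknown.

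Gene positions are those of RefSeq on GRCm38.p6, which is the build the peaks use. Annotated starts were known for 16456 of 20661 autosomal protein-coding genes and 33 of 42 collagen genes. Exons, introns and untranslated regions were not analysed here. Peaks that overlap by at least 1 bp were called shared, and others post-caerulein-only or untreated-only. Regions are the merged union of both lists, and widths of regions at a window edge include the parts outside it. Covered length was summed within 50 kb of the gene body, and log2 ratios used a pseudocount of 1 kb. Overlaps were checked against bedtools 2.31.1 and the code on simulated intervals (Python 3.11.15, pandas 2.3.3, numpy 2.4.6, scipy 1.17.1, matplotlib 3.10.9).

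With 1 library per condition no test was made. Shares of list-only peaks carry exact 95% binomial intervals, and shares of genes carry none. Collagen counts stand beside the same counts over all autosomal genes. Full values were given for genes with a marked start, with 2 or more list-only peaks of 1 list, or among the 12 largest differences in covered length (15 genes), each with its region of largest difference. Other genes were chosen for naming after their values had been seen, as examples of a class. Of the processing and receptor lists, the 4 largest differences each were named by rule. The members and lists were chosen with earlier results of these data known.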

Additional observations from a re-analysis of the deposited data

How the results depend on the processing

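No paired analysis was possible because there was 1 library per condition, and leaving a library out was equally impossible. The balance of list-only peaks (16 post-caerulein-only, 26 untreated-only, 38.1% post-caerulein-only) and the log2 ratio of total coverage (-0.06) depended on the window and on scores. Over gene bodies alone there were 9 post-caerulein-only and 7 untreated-only peaks, 56.2% and 0.01. Within 10 kb there were 9 of each and 0.01. With peaks kept only where the nearest gene body was a collagen gene, there were 8 untreated-only peaks, 57.9% and 0.05. Among list-only peaks scoring no lower than the median of their own list there were 0 post-caerulein-only and 2 untreated-only (0.0%). With all peaks at or above that median, the log2 ratio was 0.05 and 3 starts were marked after caerulein in place of 5. Genes higher and lower by a fold of 1.5 (2 and 5) numbered 3 and 3 over bodies and within 10 kb, 1 and 1 with a pseudocount of 5 kb, 2 and 1 at a fold of 2, and 2 and 8 without peaks at the starts of other genes. That last alternative, and the background of long genes, were chosen after the data had been seen. For processing genes, list-only peaks summed over genes were 5 and 2 over bodies and 8 and 5 within 10 kb. For receptors they were 4 and 5, and 4 and 6, post-caerulein-only first in each pair. Of 71 alternative values for these summaries, 42 stayed close to the main value, 25 moved and 4 changed sign. Of 90 log2 ratios for the 15 named genes, 67 stayed close, 16 moved and 7 changed sign, in 4 genes. Col8a1 was 1.46 over the body, within 10 kb and by nearest gene. Col23a1 was 0.17 over the body and 0.02 by nearest gene. Col14a1 was 0.18 with peaks at or above the median score, and Col16a1 was -0.33 without peaks at other starts. In each the alternative keeps fewer peaks. The unknown depth of the libraries limits all of these values.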

Other observations

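The X-linked type IV genes Col4a5 and Col4a6 lie outside the autosomal collagen genes described above. They are read head to head, as Col4a1 and Col4a2 are, and share a single H3K27ac peak that marked the starts of both genes in both lists. The peak covered 2.08 kb after caerulein with a score of 963.9, and 1.69 kb in untreated spheroids with a score of 819.72, each score on the scale of its own list. Neither gene had any other peak within 50 kb in either list.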
